A study of Arabidopsis thaliana with 4 samples.

Results

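The genes SPL3, SPL4 and SPL5 of Arabidopsis thaliana and the annotated transcripts on the strand opposite to SPL3 and SPL4 were described across 4 RNA libraries of whole seedlings. The members were 5 of the 32823 rows of the deposited expression table, taken by locus code: SPL3 (AT2G33810), the non-coding row AT2G33815 inside it, SPL4 (AT1G53160), the MIR156i row opposite it (AT1G07867), and SPL5 (AT3G15270). They were chosen by their FPKM in these libraries, AT2G33815 being among the rows that lay furthest below control after heat in both genotypes. The levels and differences of the members are therefore given as a description and were not tested. The 4 libraries were a heated and a control library of miR164OE, transgenic plants overexpressing the microRNA miR164, and a heated and a control library of wild type (WT), all of ecotype Col-0, with 1 library per group. Plants grew at 22 °C under 16 h of light and 8 h of dark, and the heated seedlings were 5 days old when they were moved to 35 °C for 5 days. The labels give no age at harvest for the control seedlings, so a difference in age cannot be told apart from heat. The sources used here do not name the promoter of the transgene, the number of plants per library or the number of transgenic lines.

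SPL genes encode transcription factors with a plant-specific SBP domain, which binds DNA at a GTAC core. In young Arabidopsis shoots the microRNA miR156 is abundant and pairs with a site in many SPL transcripts, which lowers their level and their translation. As the plant ages miR156 declines and SPL activity goes up, which is known to move the shoot from the juvenile to the adult phase and to promote flowering. SPL3, SPL4 and SPL5 are the small members of the family, known for activating floral meristem genes such as LFY, AP1 and FUL, and their miR156 site lies behind the coding sequence.

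The miR156 site is the feature by which these rows are tied together, so it is shown for the 3 genes and for both rows opposite. Sequences were read from the TAIR10.1 genome of RefSeq, with DNA letters written 5′ to 3′. Capitals mark the seed of the microRNA (bases 2 to 8) or the bases of the site that pair with the seed.
miR156a-5p, chr2:10676534-10676553, minus strand: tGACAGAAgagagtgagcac
SPL3 site, chr2:14305878-14305897, plus strand: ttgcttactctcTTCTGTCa
SPL4 site, chr1:19807090-19807109, plus strand: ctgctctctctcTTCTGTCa
SPL5 site, chr3:5140598-5140617, minus strand: ccgctctctctcTTCTGTCa
AT2G33815, chr2:14305878-14305897, minus strand: tGACAGAAgagagtaagcaa
miR156i, chr1:19807090-19807109, minus strand: tGACAGAAgagagagagcag

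All 3 sites kept the seed match whole. Positions counted from the 5′ end of the site, the SPL3 site differed from the exact reverse complement of miR156a-5p by G1T and C6T, the SPL4 site by G1C and A7T, and the SPL5 site by G1C, T2C and A7T. Of 17 SPL genes searched without gaps, 11 held a site with at most 3 mismatches, and in the other 6 the best stretch had at least 6. The site lay in the coding sequence in 8 of the 11 and in the 3′ UTR in SPL3, SPL4 and SPL5. Of the 3 annotated SPL4 transcripts, 1 held the site, and the other two are spliced across it.

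The annotated mature miR156i spans exactly the 20 bases of the SPL4 site, read on the other strand. It differs from miR156a-5p by T14A and C20G, counted from its 5′ end. SPL9 was the only other SPL gene of the 17 with this arrangement, where the annotated miR156j (tGACAGAAgagagagagcac) covers the SPL9 site at chr2:17589066-17589085. AT2G33815 likewise carries the reverse complement of the SPL3 site, with the seed of miR156 whole, but no microRNA is annotated there.

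**Figure D1:**
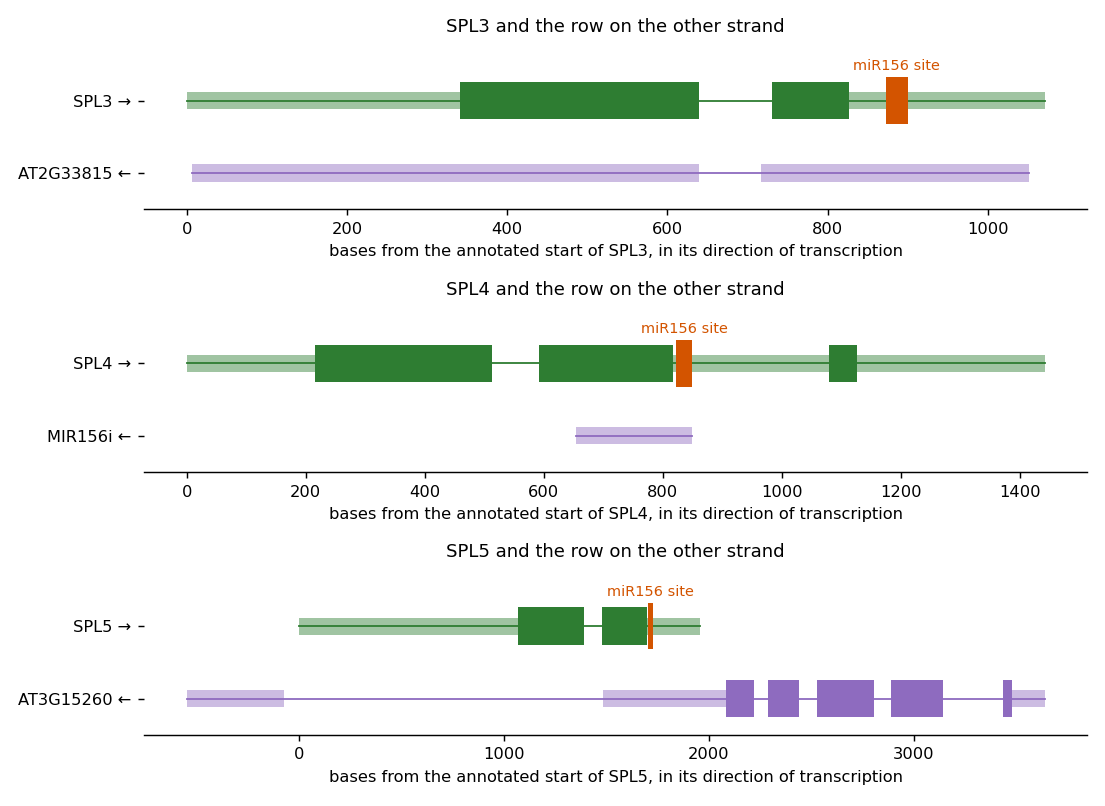
Map of SPL3, SPL4 and SPL5 (green, upper line of each panel) and of the annotated row on the other strand (purple, lower line), with the x axis in bases from the annotated start of the SPL gene. Thick boxes are coding exons, thin boxes other exons, lines introns, and orange the miR156 site, drawn slightly wider than its 20 bases. The exons of AT2G33815 cover nearly all of those of SPL3, MIR156i ends just past the SPL4 site, and AT3G15260 overlaps SPL5 in part.

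SPL3 lies on chromosome 2 (chr2:14305001-14306072, plus strand, TAIR10) and AT2G33815 on the minus strand at chr2:14305008-14306053, with 955 of its 969 exon bases opposite SPL3 exons. SPL4 is at chr1:19806263-19807705 on the plus strand, with MIR156i, a single exon of 197 bases, at chr1:19806917-19807113 on the minus strand. SPL5 is at chr3:5140365-5142323 on the minus strand, and AT3G15260, a protein phosphatase 2C gene, overlaps it with 477 of 2105 exon bases on the plus strand. The longest proteins of SPL3, SPL4 and SPL5 have 131, 174 and 181 residues by the length of their coding sequences. In global alignments of these coding sequences, identical bases made up 81.2% of the aligned bases for SPL4 and SPL5, 74.7% for SPL3 and SPL4, and 70.5% for SPL3 and SPL5.

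A strand-specific kit was used for the libraries, but the sources used here do not give the strand setting of the counting. Fragments of SPL3 and AT2G33815, of SPL4 and MIR156i, and of SPL5 and every other gene named here therefore cannot be assigned to a strand with certainty. Each value below is the level listed for a row. Values are FPKM, fragment numbers scaled by transcript length and by library size. Each library is bulk RNA, in which fewer cells of a type and less RNA per cell cannot be told apart. Summed FPKM was 1065963 in miR164OE heat, 1983185 in miR164OE control, 1136254 in WT heat and 1901841 in WT control. On a row with 1 kb of exons, each fragment added roughly 1.19, 1.88, 1.77 and 1.95 FPKM in the same order. Marker rows of tissues were looked up as listed, with their strand as uncertain, so they do not settle the labelled organ. The 5 of green tissue summed to 263 FPKM in miR164OE heat, 451 in miR164OE control, 201 in WT heat and 551 in WT control. The 5 root markers summed to 49.1 FPKM in miR164OE heat, 28.3 in miR164OE control, 29.4 in WT heat and 31.6 in WT control. Of 4 shoot meristem markers, STM, WUS and CLV3 were listed at 0 in all 4 libraries. The fourth, KNAT1, was listed at 7.08 FPKM in miR164OE heat and 1.88 in miR164OE control, and at 1.19 in WT heat and 0 in WT control. Of 4 flower markers, AP3 and AG were listed at 0 in all 4 libraries, and SEP3 at 1.79 FPKM in miR164OE heat, 3.07 in miR164OE control and 0 in both WT libraries. PI, a gene of petals and stamens, was listed at 0 FPKM in miR164OE heat, 8.93 in miR164OE control, 2.24 in WT heat and 23.2 in WT control. KNAT1 thus had the order of SPL3 between heat and control in both genotypes, and PI that of AT2G33815. Each is 1 marker of 4, and the other markers of both lists were at 0 in both WT libraries. KNAT1 in WT heat rests on about 1.36 fragments. Among green tissue and root markers, LHCB1.3, LHCB2.1, RCA, RBCS3B and SCR were also lower after heat in both genotypes, and SHR and PYK10 higher. RBCS1A was higher in miR164OE and lower in WT, TIP2;3 was at 0 throughout, and TIP4;1 was above 0 in WT control alone. With nuclear rows scaled to equal sums, RCA and RBCS3B were higher after heat in miR164OE. Such orders are common, since 32.5% of rows averaging 1 FPKM or more were at least 2-fold higher after heat in miR164OE and 29.8% in WT. At least 2-fold lower were 17.2% and 21.7%. The part of other cell types in the member values was not tested. The precursors MIR164A, MIR164B and MIR164C were listed at 0 in all 4, which leaves the genotype labels unchecked here. The 7 heat stress markers summed to 177 FPKM in miR164OE heat, 30.7 in miR164OE control, 92.9 in WT heat and 27.8 in WT control. Of the 5 that averaged 1 FPKM or more, 4 small heat shock protein rows were at least 2-fold higher after heat in both genotypes. Among these, HSP22.0 in WT heat rests on about 1.57 fragments. The fifth, HSP101, a chaperone, differed by -0.67 in miR164OE and -0.69 in WT. Of the other two, HSFA2 was at 0 in all 4 libraries and HSA32 was above 0 in miR164OE heat alone (0.857 FPKM).

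SPL3 was listed at 21.5 FPKM in miR164OE heat and 4.11 in miR164OE control. In WT it was listed at 27.0 FPKM after heat and 2.16 in control. Both heat libraries were thus above both control libraries, and the groups of each genotype kept the same order. The differences of log2(FPKM + 1), heat minus control, were 2.14 in miR164OE and 3.15 in WT. The control values correspond to about 2.15 fragments in miR164OE and 1.08 in WT, and the heat values to about 17.8 and 15.0, so the size of the fold rests on very few fragments in the controls.

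AT2G33815, annotated as a natural antisense transcript of SPL3, had the reverse order. It was listed at 18.4 FPKM in miR164OE heat and 284 in miR164OE control. In WT it was listed at 45.2 FPKM after heat and 310 in control. Both heat libraries were far below both controls, with differences on the same log2 scale of -3.87 in miR164OE and -2.75 in WT. These levels correspond to about 15.1 and 146 fragments in miR164OE heat and control, and to about 24.8 and 154 in WT heat and control, so that this row carries most of the signal of the locus without heat.

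The balance between the rows of the SPL3 locus differed between heat and control in both genotypes. SPL3 held 53.8% of the FPKM of both rows in miR164OE heat and 1.43% in miR164OE control, and 37.4% in WT heat and 0.691% in WT control. AT2G33815 was 0.859 times as high as SPL3 in miR164OE heat and 69.0 times as high in miR164OE control. In WT it was 1.68 times as high after heat and 144 times as high in control. The rows together summed to 39.9 FPKM in miR164OE heat and 288 in miR164OE control, and to 72.1 in WT heat and 312 in WT control. The locus as a whole was therefore lower after heat, by differences of -2.82 in miR164OE and -2.10 in WT (-1.89 and -1.32 with nuclear rows scaled to equal sums), while the SPL3 row alone was higher. All of these values take each row as listed. If the counting had exchanged the strands, the SPL3 transcript would be the one listed as AT2G33815, with 46.2% of the FPKM in miR164OE heat and 98.6% in miR164OE control, and 62.6% in WT heat and 99.3% in WT control. SPL3 would then be lower after heat in both genotypes, by the differences of -3.87 and -2.75 given for that row, and the files do not settle which strand a row holds.

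**Figure D2:**
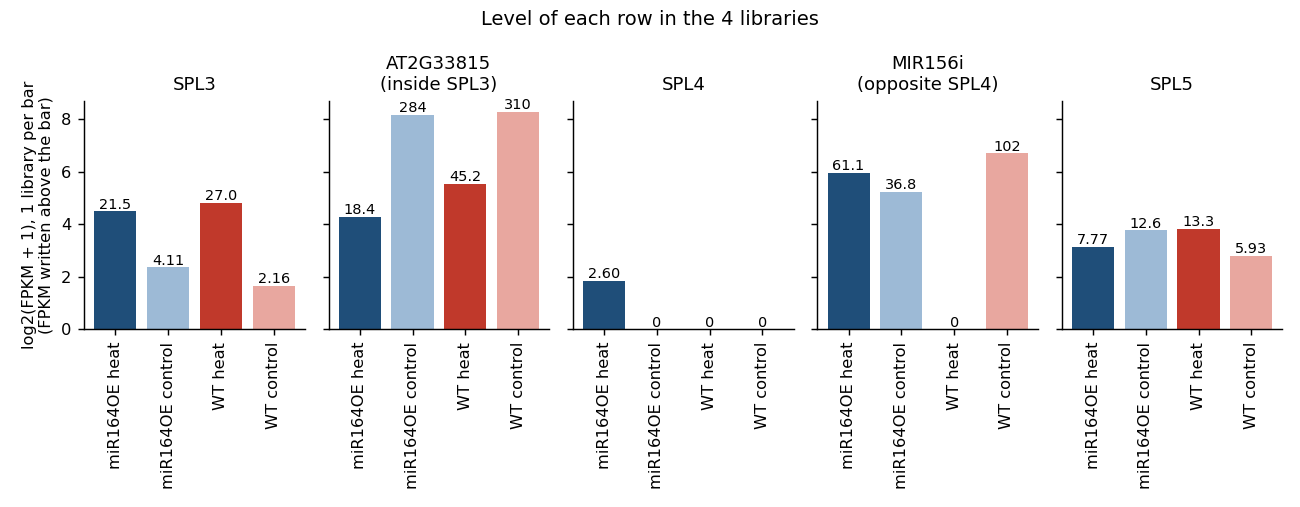
Level of the 5 rows in each library, as log2(FPKM + 1) on the y axis with the FPKM written above each bar; each bar is 1 library, so there are no error bars. SPL3 is higher and AT2G33815 lower in both heat libraries than in both controls, SPL4 is above 0 only in miR164OE heat, MIR156i is at 0 only in WT heat, and SPL5 lies between 5.93 and 13.3 FPKM throughout.

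The same readout was taken for other rows whose exons lie opposite those of a coding gene. Over 310 such inner rows, each with 300 bases or more and averaging 20 FPKM or more, the median heat difference was -0.39 in miR164OE and -0.22 in WT. At least 2-fold lower were 86 of them in miR164OE (27.7%) and 70 in WT (22.6%), and AT2G33815 was the 6th lowest in miR164OE and the 11th lowest in WT. In 190 of these pairs the coding gene's row averaged 1 FPKM or more. Its median share of the FPKM of the pair was 2.59% in miR164OE heat and 1.57% in miR164OE control, and 2.76% in WT heat and 1.23% in WT control, so that the row opposite the coding gene held most of the FPKM in such pairs, which had been picked for a high level of that row. The strand of these rows is as uncertain as that of SPL3, and a coding row's value may not be the level of the gene it is named for. The share held by SPL3 exceeded that of 167 of the other pairs in miR164OE heat and of 157 in WT heat, but of 90 and 78 in the miR164OE and WT controls.

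A row at least 2-fold lower inside a coding row at least 2-fold higher was found in 14 of the 190 pairs in miR164OE (7.37%) and in 14 in WT (7.37%). In 4 pairs (2.11%) this held in both genotypes, and SPL3 with AT2G33815 was among them. The other 3, named after their values were seen, were the rows AT1G09443 inside AT1G74370, AT1G45165 inside AT1G45163 and AT3G01895 inside AT3G06780. Since SPL3 was chosen with these heat differences known, the counts place it among the pairs and support nothing.

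**Figure D3:**
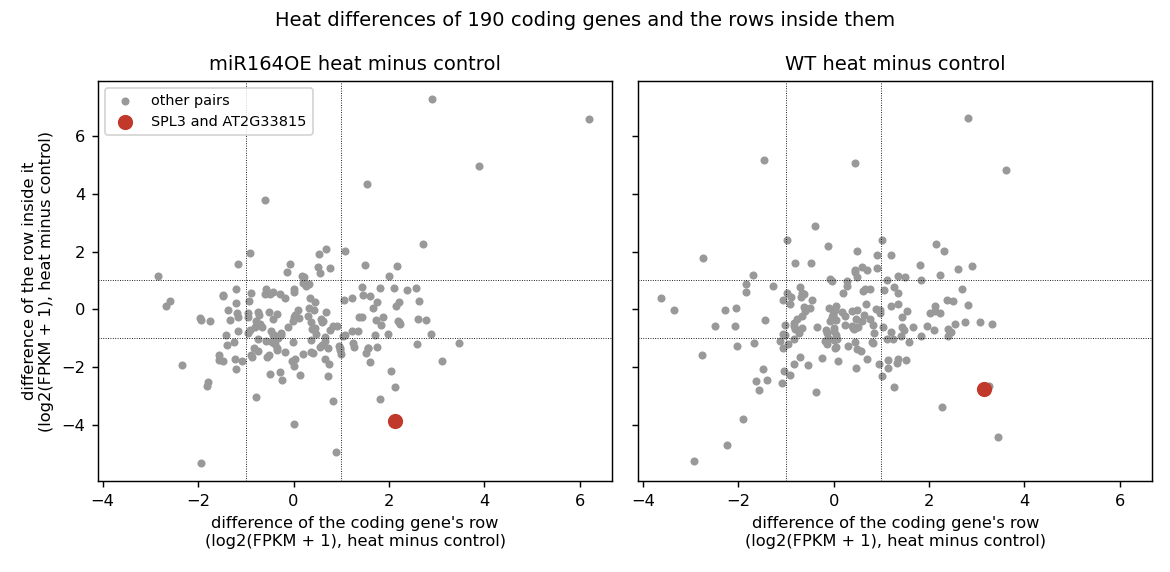
Heat minus control difference of log2(FPKM + 1) for 190 coding genes (x axis) and for the row inside each on the other strand (y axis), in miR164OE (left) and WT (right); each grey point is a pair and dotted lines mark a 2-fold difference. SPL3 with AT2G33815 (red) lies at the lower right in both panels, at 2.14 and -3.87 in miR164OE and at 3.15 and -2.75 in WT.

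SPL4, the close relative of SPL5, was listed at 2.60 FPKM in miR164OE heat and at 0 in miR164OE control, WT heat and WT control. The single value corresponds to about 2.99 fragments, and its mean of 0.650 FPKM over the libraries left SPL4 below the row minimum of 1 FPKM used for counting differences. An SPL4 transcript level could not be compared between these libraries, with so few fragments listed for the row and its strand uncertain. Of the 5 members, the other 4 passed this minimum.

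MIR156i, opposite SPL4, was listed at 61.1 FPKM in miR164OE heat and 36.8 in miR164OE control. In WT it was listed at 0 after heat and at 102 FPKM in control. No order of heat and control was shared by the genotypes, and WT heat stood apart from the other 3 libraries. The row is short, so its values were set beside those of other nuclear rows of 180 to 220 bases with a value above 0. The lowest of these was 17.3 FPKM in miR164OE heat, 20.9 in miR164OE control, 16.6 in WT heat and 45.8 in WT control, and their medians were 179, 237, 183 and 248 FPKM. The MIR156i values were 3.53, 1.76 and 2.23 times the lowest of their library in miR164OE heat, miR164OE control and WT control, and lay below the median of such rows in all 3 libraries in which it was above 0. The other 12 precursor genes of miR156 and miR157 that were looked up were at 0 in all 4 libraries, as were 5 precursors of miR172, the microRNA that acts after miR156 in the aging pathway. Of all 32823 rows, 45.1% were at 0 in all 4 libraries, and these precursor rows are short, with 95 to 221 exon bases. A listing at 0 is therefore not read as a lack of expression.

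SPL5 was listed at 7.77 FPKM in miR164OE heat and 12.6 in miR164OE control. In WT it was listed at 13.3 FPKM after heat and 5.93 in control. The heat libraries lay on opposite sides of their controls, with differences of -0.63 in miR164OE and 1.04 in WT, but on the same side (0.22 and 1.74) once nuclear rows had been scaled to equal sums. The FPKM values of heat and control libraries overlapped. About 12.3 and 12.6 fragments stood behind the values of miR164OE heat and control, and about 14.0 and 5.68 behind those of WT heat and control. AT3G15260, the partly overlapping phosphatase gene, was listed at 3.29 FPKM in miR164OE heat and 1.38 in miR164OE control, and at 1.21 in WT heat and 5.85 in WT control. In FPKM as deposited it thus had the reverse order of SPL5 in each genotype. At levels as low as 1.21 and 1.38 FPKM, this order may rest on very few fragments.

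Between the genotypes without heat, MIR156i was at least 2-fold apart, and SPL5 lay just under that limit and passed it with a pseudocount of 0.1 (1.08). The MIR156i values were 1.76 times the lowest short row in miR164OE control and 2.23 times in WT control, so this difference may rest on very few fragments. The same limit holds for MIR156i in every comparison below that counts it. The differences of log2(FPKM + 1), miR164OE control minus WT control, were 0.70 for SPL3, -0.13 for AT2G33815, 0.97 for SPL5 and -1.45 for MIR156i. With heat, miR164OE minus WT, they were -0.32 for SPL3, -1.25 for AT2G33815 and -0.70 for SPL5, and MIR156i was listed at 61.1 FPKM in miR164OE heat and at 0 in WT heat. Subtracting the heat difference of WT from that of miR164OE gave -1.01 for SPL3, -1.12 for AT2G33815 and -1.67 for SPL5. The values for SPL3 and AT2G33815 missed the 2-fold limit under both rescalings of the libraries, at -0.83 and -0.97 with equal nuclear sums and at -0.88 and -0.99 with equal medians, and also with a pseudocount of 5, at -0.62 and -0.97.

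These differences were read against all 10488 rows that averaged 1 FPKM or more over the libraries. After heat in miR164OE, 32.5% of all rows were at least 2-fold higher, as was SPL3 of the 4 members counted, and 17.2% were at least 2-fold lower, as was AT2G33815. In WT the shares were 29.8% higher, which included SPL3 and SPL5, and 21.7% lower, which included AT2G33815 and MIR156i. Without heat, 16.8% of rows were at least 2-fold higher in miR164OE than in WT, with no member, and 18.9% lower, with MIR156i. With heat, 19.6% were higher, with MIR156i, and 13.6% lower, with AT2G33815. For the difference of heat differences, 27.7% of rows were higher, with MIR156i, and 22.3% lower, with SPL3, AT2G33815 and SPL5. Rescaling nuclear rows to a common sum moved the share of higher rows among the 2-fold rows to 87.0% instead of 65.4% in miR164OE and to 76.7% instead of 57.8% in WT. The median heat difference of all rows then was 1.09 instead of 0.25 in miR164OE and 0.70 instead of 0 in WT. On that scale AT2G33815 remained lower, at -2.95 in miR164OE and -1.98 in WT, and SPL3 higher, at 2.97 and 3.80.

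Rows whose pattern over the 4 libraries was most like that of AT2G33815 were sought among 2086 nuclear rows of 300 bases or more that averaged 20 FPKM or more. Likeness was the Euclidean distance of the 4 values of log2(FPKM + 1) after subtracting each row's mean. The nearest were AT1G04433, a non-coding row opposite AT1G05835 (distance 0.485), AT1G03140, a gene for a Prp18 family splicing factor (0.492), AT3G56130, for a biotin/lipoyl attachment domain protein (0.536), AT1G02952, a non-coding row opposite the glutathione transferase gene GSTF4 (0.541), and AT2G40020 (0.629). AT1G04433 was listed at 56.0 FPKM in miR164OE heat and 881 in miR164OE control, and at 95.7 in WT heat and 696 in WT control. With a pseudocount of 5 instead of 1, 3 of the 5 remained among the nearest. For MIR156i the nearest were the non-coding rows AT4G07195 (0.682) and AT1G07703 (0.879), PLS, a gene for a small peptide of root growth (1.16), AT1G04877 (1.47) and AT1G08567 (1.60), all of them, like MIR156i, listed at 0 in WT heat.

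The other 14 SPL genes were low in this table. SPL9, SPL10 and SPL15 passed the row minimum, and SPL6 and SPL13B were at 0 in all 4 libraries. SPL10, a miR156 target known for leaf and root development, was listed at 4.17 FPKM in miR164OE heat and 6.56 in miR164OE control, and at 10.3 in WT heat and 7.08 in WT control. SPL9, which activates MIR172B, was listed at 2.23 and 1.56 FPKM in miR164OE heat and control and at 1.34 and 0.792 in WT heat and control. SPL15, which acts with SPL9, was listed at 3.89 and 1.63 FPKM in miR164OE heat and control and at 0 in both WT libraries. None of these 3 was 2-fold apart between heat and control in either genotype, and their median heat difference was 0.33 in miR164OE and 0.38 in WT, against 0.25 and 0 over all rows. With equal nuclear sums SPL15 passed the limit in miR164OE (1.58) and SPL10 in WT (1.18). SPL9 rests on about 3.35 fragments or fewer in each library and SPL15 on about 4.77 or fewer. Whether these rows pass the limit therefore says little about the genes.

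Annotated rows overlapped SPL exons on the other strand at 8 SPL genes. Opposite SPL15, the row AT3G57910 covers all 1455 of its exon bases and was listed at 10.9 FPKM in miR164OE heat and 21.0 in miR164OE control, and at 22.8 in WT heat and 17.9 in WT control. Opposite SPL8, AT1G02067, a row of 222 bases, was listed at 28.0 FPKM in miR164OE heat and 0 in miR164OE control, and at 37.2 in WT heat and 44.0 in WT control. MIR156j, opposite SPL9, and the rows overlapping SPL6 and SPL13A were at 0 in all 4 libraries. In these rows, AT2G33815 alone was 2-fold lower after heat in both genotypes. It had been chosen with these heat differences known, so this supports nothing, and the rows at 0 in all 4 libraries could not be lower. Of all rows averaging 1 FPKM or more, 17.2% were at least 2-fold lower after heat in miR164OE and 21.7% in WT.

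Of 10 floral integrator and meristem identity genes, which include known targets of the SPL3 group, FD passed the row minimum, and FT, TSF, AGL24, AGL42, FUL, AP1 and CAL were at 0 in all 4 libraries. Of all 32823 rows, 45.1% were at 0 in all 4, so 7 of 10 genes at 0 is not read as a result about this list. FD, the bZIP partner of florigen, was listed at 5.91 FPKM in miR164OE heat and 10.2 in miR164OE control, and at 11.8 in WT heat and 11.0 in WT control. SOC1 was listed at 1.36 FPKM in miR164OE heat and LFY at 1.14 in WT heat, and both at 0 in the other 3 libraries. These values rest on about 1.79 fragments for SOC1 and 0.890 for LFY, too few to compare libraries. Among 6 AP2-like repressors of flowering, which miR172 targets, AP2 and TOE1 passed the minimum, with no heat difference of 2-fold for AP2. TOE1 was listed at 1.35 FPKM in miR164OE heat and 0.688 in miR164OE control, and at 0 in WT heat and 2.50 in WT control.

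Of 10 upstream regulators of flowering, 7 passed the minimum, with 2 at least 2-fold higher and 3 lower after heat in miR164OE (median -0.57), against 32.5% higher and 17.2% lower over all rows. In WT 1 was higher and 2 were lower (median -0.08), against 29.8% and 21.7% over all rows. With equal nuclear sums 2 were higher and none lower in miR164OE (median 0.30), against 52.7% and 7.87% of the 11154 rows that then averaged 1 FPKM or more. In WT 2 were higher and 1 lower (median 0.67), against 43.4% and 13.2%. Counts this small over 7 genes are given as a description. TEM2, a repressor of FT, was listed at 24.1 FPKM in miR164OE heat and 54.1 in miR164OE control, and at 19.95 in WT heat and 39.7 in WT control. Its relative TEM1 was listed at 9.63 FPKM in miR164OE heat and 14.8 in miR164OE control, and at 9.60 in WT heat and 25.3 in WT control. Both were lower in each heat library than in its control, except that TEM1 differed by 0.30 in miR164OE once nuclear rows had been scaled to equal sums. SVP, a repressor that acts with FLC, was listed at 16.5 FPKM in miR164OE heat and 7.64 in miR164OE control, and at 8.26 in WT heat and 6.42 in WT control. FLC was listed at 3.92 FPKM in miR164OE heat and 1.90 in WT heat, and at 0 in both controls. MAF2, a relative of FLC, was listed at 2.07 FPKM in miR164OE heat and 8.35 in miR164OE control, and at 0 in WT heat and 6.46 in WT control. CO, the photoperiod regulator of FT, lay between 23.1 and 35.5 FPKM with no 2-fold difference. PIF4, which promotes growth and flowering in warmth, was listed at 4.28 FPKM in miR164OE heat and 11.0 in miR164OE control, and at 3.79 in WT heat and 2.67 in WT control.

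Of 7 genes of the microRNA machinery, SE and AGO1 passed the minimum. AGO1, which carries miR156 to its targets, was listed at 1.62 FPKM in miR164OE heat and 1.004 in miR164OE control, and at 0.416 in WT heat and 1.54 in WT control. SE, a cofactor of microRNA processing, was listed at 1.06 FPKM in miR164OE heat and 0.682 in miR164OE control, and at 3.63 in WT heat and 0 in WT control. Levels this low rest on a few fragments each and were not ordered.

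**Figure D4:**
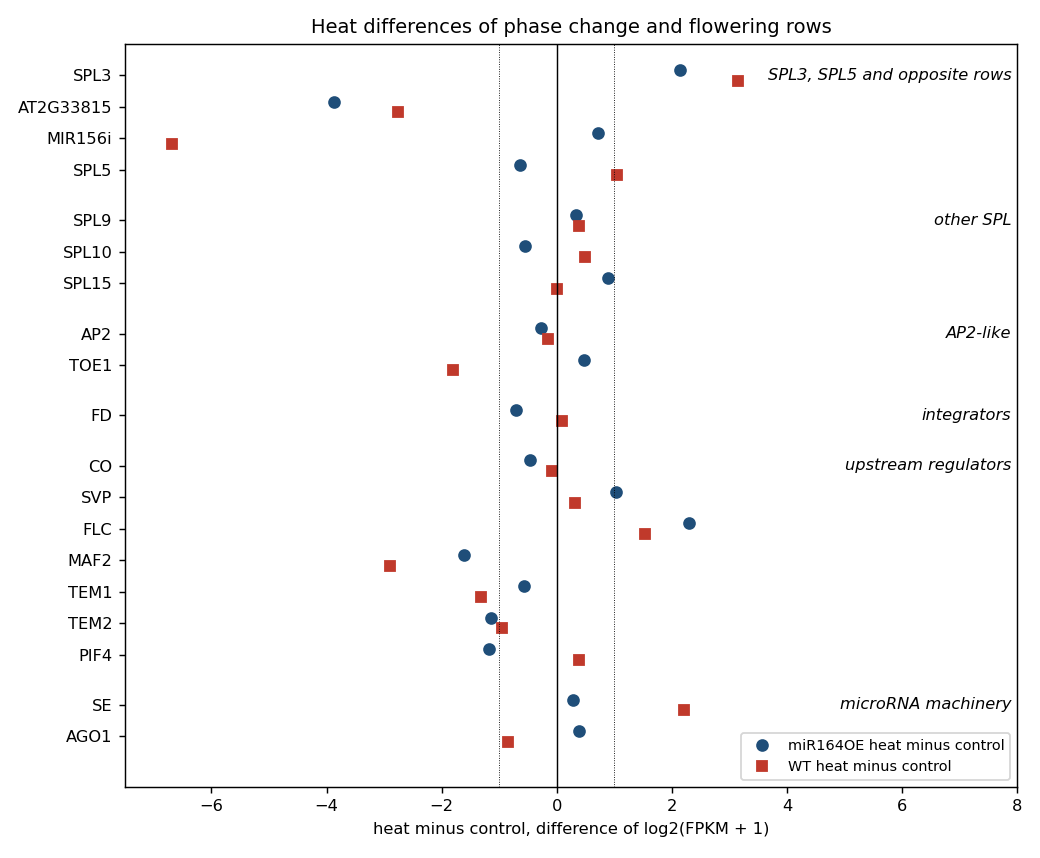
Heat minus control difference of log2(FPKM + 1) (x axis) for the members and for listed phase change and flowering genes averaging 1 FPKM or more, in miR164OE (blue circles) and WT (red squares), 1 library per group; dotted lines mark a 2-fold difference. SPL3 lies right and AT2G33815 left of the 2-fold lines in both genotypes, whereas MIR156i and SPL5 lie on opposite sides of 0 in the genotypes, SPL5 no longer so with equal nuclear sums (0.22 in miR164OE and 1.74 in WT); the distance of rows listed at 0 in a library depends on the pseudocount of 1.

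The GTAC core that SBP domains bind was searched in windows from 250 bases before to 50 bases after each annotated start. The motif reads the same on both strands. It was present once for SPL4 and once for MIR156i and was absent for SPL3, SPL5 and AT2G33815, and 10703 of 27443 coding genes held it in this window.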

How the data were processed

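The authors deposited 1 table of FPKM for 32823 rows and 4 libraries. TopHat, Cufflinks, bcl2fastq 2.1.7 and the genome build TAIR10 are named per the submitters' processing notes. The sources used here do not give other versions, the strand setting, the annotation or the depth. Total RNA was extracted with Trizol and libraries were strand-specific, per the labels' protocols. Rows were matched by locus code to the RefSeq TAIR10.1 annotation, which had 32538 of them, and start and end were equal for 22475 of 22477 loci with 1 gene.

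Differences were computed with Python 3.11.15 and pandas 2.3.3 as log2(FPKM + 1) in 1 library minus that in another, which understates the change of low rows. Counts are over rows that averaged 1 FPKM or more, and a difference of at least 1 (2-fold) was called. With 1 library per group there is no replicate error within a group, and no test was run, since the members had been chosen by these differences. An additive fit of heat and genotype would leave 1 residual degree of freedom and was not made. No paired analysis was possible because the results come from no test and the groups share only 1 replicate number.

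The FPKM worth of 1 fragment was the mode of FPKM times exon length, over rows under 6 FPKM that overlap no gene and have 800 to 2500 bases, and fragment numbers from it are approximate. Rows inside a coding gene had at least 90% of their exon bases opposite exons of 1 coding gene, no overlap on their own strand and fewer bases than that gene. Named were the 5 members, the genes of the lists, and the 5 rows nearest in pattern to each member averaging 20 FPKM or more. The members and lists were chosen with earlier results of these data known. Alternatives were pseudocounts of 0.1 and 5, no row minimum or one of 5 FPKM, 2 rescalings, and rows inside coding genes of any length.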

Additional observations from a re-analysis of the deposited data

Results flagged for a closer look

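For 2 members the heat libraries lay on opposite sides of their controls in the genotypes. The difference between the genotypes was not tested, with 1 library per group. SPL5 differed by -0.63 in miR164OE and by 1.04 in WT (log2(FPKM + 1), heat minus control), and with nuclear rows scaled to equal sums by 0.22 and 1.74, on the same side of 0. MIR156i was listed at 61.1 FPKM in miR164OE heat and 36.8 in miR164OE control, and at 0 in WT heat and 102 in WT control.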

How the results depend on the processing

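Heat differences of SPL3 and AT2G33815 kept their direction and stayed past the 2-fold limit with both other pseudocounts and both rescalings in both genotypes; the row minimum cannot change a row's own difference. SPL5 in WT missed the limit with a pseudocount of 5 (0.74), and MIR156i in miR164OE passed it with equal nuclear sums (1.64). Between genotypes without heat, SPL5 passed it with a pseudocount of 0.1 (1.08). The differences of heat differences of SPL3 and AT2G33815 missed it with a pseudocount of 5 (-0.62 and -0.97) and under both rescalings. Counts of rows at least 2-fold apart moved by over 1.5 times as follows. For heat in miR164OE the count was 5209, against 2463 with a pseudocount of 5 and 2240 with a minimum of 5 FPKM. For heat in WT it was 5406, against 2636 and 2359 under the same settings. Between genotypes it was 3747 without heat, against 1236 and 1232, and 3482 with heat, against 1221 and 1060, or 5973 with no row minimum. For the difference of heat differences it was 5241, against 2668 and 1884, or 8964 with no row minimum. A stricter minimum or no minimum changes how many rows are counted, and a larger pseudocount shrinks the differences of low rows. Low fragment numbers limit SPL3 in the controls, where it rests on about 2.15 fragments or fewer, and SPL4 and MIR156i in all libraries. The uncertain strand limits all 5 members and the other genes named here as well.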
